A study of Rattus norvegicus with 9 samples.

Results

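Smooth muscle differentiation genes encode the actins, the myosin heavy chain, the actin-binding proteins and the intermediate filament of the smooth muscle contractile apparatus, together with myocardin, the coactivator that drives their transcription. The 10 genes Acta2, Tagln, Cnn1, Myh11, Myocd, Lmod1, Smtn, Des, Synpo2 and Actg2 were taken by symbol from the deposited count table. All 10 were among its 35362 genes, and all 10 were among the 14770 genes that passed the filter on low counts. The rule matched symbols and used no measured value, but the 10 genes were proposed with earlier results of these data known.

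In smooth muscle, myocardin binds serum response factor (SRF) on CArG boxes, short DNA elements that start with CC, end with GG and have a core of A and T, and switches on genes such as Acta2, Tagln, Cnn1 and Myh11. Cultured mesenchymal stem cells, fibroblasts and pericytes express the earlier of these genes at varying levels, while Myh11 and Lmod1 are regarded as markers of more mature smooth muscle. Acta2, Tagln and Cnn1 are also known as genes of the myofibroblast program, which is regulated through actin polymerization and the myocardin-related factors Mkl1 and Mkl2.

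The study asked how adipose-derived mesenchymal stem cells (ASCs) from different fat depots differ. SASCs came from subcutaneous fat of the groin, PASCs from perirenal fat and EASCs from epididymal fat, all of male Sprague Dawley rats aged 6 weeks with no genetic change or drug, and RNA was taken at passage 3 of growth in serum-containing medium. Each group had 3 samples. RNA was extracted per well of multiwell plates, and the study describes 6 replicates in each group, of which 3 were analysed here. Whether the wells came from separate rats is not given in the sources used here, so p-values measure only the spread between these samples, which may be technical. Plastic-adherent ASCs are a mixed population obtained by collagenase digestion after visible muscle and lymph tissue was removed, and in bulk RNA fewer cells of a type cannot be told apart from less RNA per cell.

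Total counts ranged from 17591916 to 30299032 per sample. Levels as counts scaled to library size (CPM) are given after scaling by trimmed means (TMM), and 3 counts corresponded to 0.104 to 0.159 CPM. The mesenchymal markers Thy1, Eng, Nt5e, Cd44 and Itgb1 were read in every sample, and the summed level of 9 such markers was from 4288 to 4424 CPM in SASCs, from 3853 to 4034 in PASCs and from 5106 to 5178 in EASCs. Pdgfra, a receptor of mesenchymal progenitors on the same list, was far lower in both visceral depots, with a mean of 1543 ± 37.0 CPM (SD, n = 3) in SASCs, 278 ± 17.6 in PASCs and 235 ± 8.46 in EASCs, and was called lower in both (log2 -2.72 in EASCs and -2.47 in PASCs). In EASCs against SASCs 2 of the 9 markers were called higher, Eng (log2 1.77) and Itgb1 (log2 1.497), and 1 lower, Pdgfra. Over all tested genes 13.6% were called higher and 14.2% lower in that comparison. In PASCs against SASCs 0 were called higher and 2 lower, Pdgfra and Vcam1 (log2 -1.94), beside 12.0% and 14.9% of all tested genes. Ribosomal RNA genes took from 10.4 to 15.5% of the counts in SASCs, from 22.4 to 32.9% in PASCs and from 15.9 to 40.3% in EASCs. With these genes removed before scaling, 10, 8 and 7 members were still called in the 3 comparisons, and the log2 fold change of Acta2 between EASCs and SASCs was 5.31 (5.30 with them). SASCs replicate 2 stood apart in cardiac transcripts, with 89 counts over 7 cardiac markers against 2 and 3 in the other SASCs. Leaving that library out gave the same numbers of called members, 10, 8 and 7, in the 3 comparisons.

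A gene was called when its fold change was above 2 and its adjusted p was under 0.05 (edgeR quasi-likelihood test, Benjamini-Hochberg adjustment over all 14770 genes). EASCs had the highest level of every one of the 10 genes. Against SASCs, 10 of 10 were called higher in EASCs, where 13.6% of all tested genes were called higher. Against SASCs, 8 of 10 were called higher in PASCs, where the share over all tested genes was 12.0%. Against PASCs, 7 of 10 were called higher in EASCs, where that share was 5.19%. The median log2 fold change of the 10 genes was 3.99, 1.56 and 1.66 in these comparisons, against 0.01, -0.01 and -0.01 over all tested genes. The summed level of the 10 genes was from 211.5 to 228 CPM in SASCs, from 3023 to 3335 in PASCs and from 6727 to 7079 in EASCs.

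The order EASCs > PASCs > SASCs held for 8 genes, and Myocd and Synpo2 had the order EASCs > SASCs > PASCs. In the plot of levels by sample, no sample of one group reached the values of another group, except for Myocd in SASCs and PASCs. EASCs samples were all above SASCs samples for 10 of 10 genes (36.3% of all tested genes) and all above PASCs samples for 10 of 10 (21.1%). PASCs samples were all above SASCs samples for 8 genes (35.7%), and all below them for Synpo2 (36.0% of all tested genes lay that way). With 3 against 3 samples an exact two-sided permutation test cannot go below p = 0.1, and each pair of groups without overlap had that value.

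**Figure D1:**
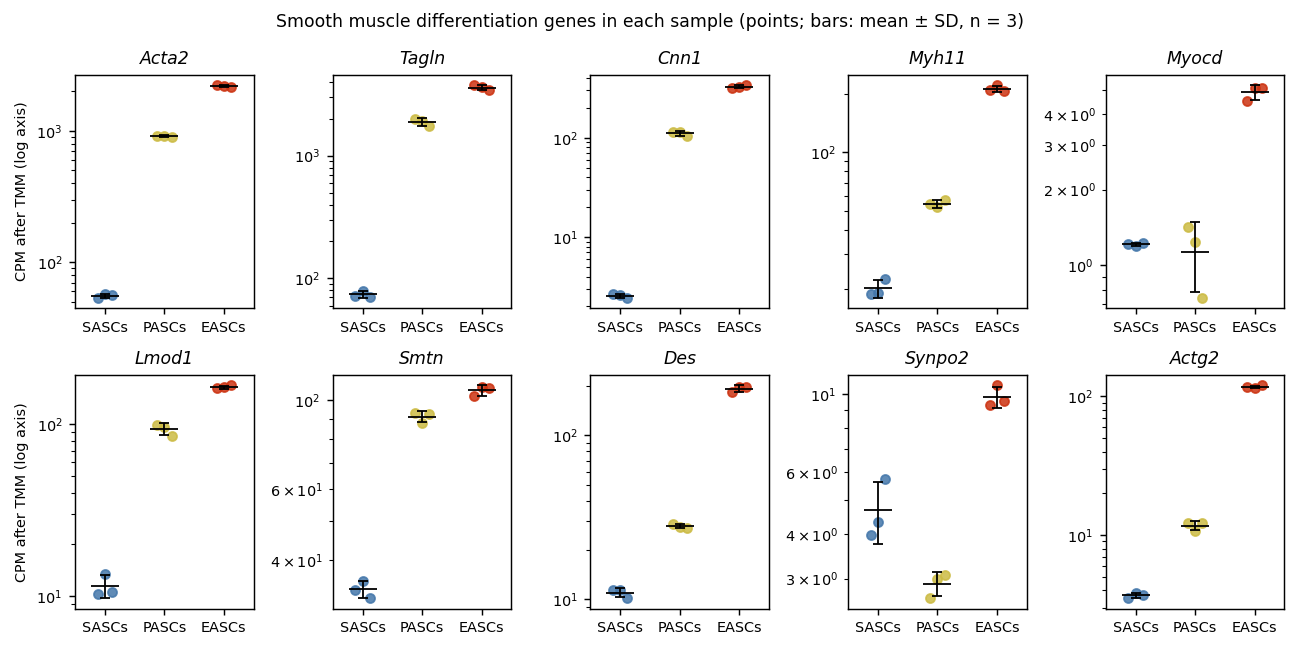
Level of each of the 10 genes in each of the 9 samples, in CPM after TMM on a log axis that is set separately for each gene. Points are samples, and black bars are the mean ± SD (n = 3). EASCs are highest in all 10 panels, and PASCs lie between for 8 genes, while in Myocd the SASCs and PASCs points overlap and in Synpo2 PASCs are lowest.

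Acta2 encodes alpha-smooth muscle actin, the main actin of vascular smooth muscle and of myofibroblasts (chr1:252537614-252550394, minus strand, rn6). Its level was 53.6, 57.5 and 56.1 CPM in SASCs, 921, 918 and 893 CPM in PASCs, and 2225, 2206 and 2169 CPM in EASCs. The 3 depots were far apart, and the samples of each depot lay within a few percent of each other. The log2 fold change was 5.30 (SE 0.0649, edgeR adjusted p = 4.33e-29) in EASCs against SASCs, a 39.5-fold difference. It was 4.03 (SE 0.0615, edgeR adjusted p = 3.37e-27) in PASCs against SASCs, a 16.3-fold difference. EASCs exceeded PASCs by a log2 fold change of 1.27 (SE 0.0540, edgeR adjusted p = 1.18e-16).

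The 250 bases before the start of a gene were read from RefSeq (GRCr8 assembly, a later build than the count table's), which gave a window for 6 of the 10 genes (Acta2, Cnn1, Smtn, Des, Synpo2 and Actg2). Tagln, Myh11, Myocd and Lmod1 had no window in the set of promoters used, which does not mean that the annotation lacks them. Only the windows of Acta2 and Cnn1 are shown, because Acta2 was the only gene of the 6 with a match to the searched motifs and Cnn1 was the gene with the largest fold change. Capitals mark the matches in Acta2, and the Cnn1 window has none.
Acta2, chr1:241172504-241172753, minus strand: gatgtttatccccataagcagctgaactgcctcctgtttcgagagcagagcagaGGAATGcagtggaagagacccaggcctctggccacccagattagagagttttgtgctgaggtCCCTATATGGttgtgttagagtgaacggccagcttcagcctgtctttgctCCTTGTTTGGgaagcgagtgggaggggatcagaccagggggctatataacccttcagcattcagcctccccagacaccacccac
Cnn1, chr8:28908187-28908436, plus strand: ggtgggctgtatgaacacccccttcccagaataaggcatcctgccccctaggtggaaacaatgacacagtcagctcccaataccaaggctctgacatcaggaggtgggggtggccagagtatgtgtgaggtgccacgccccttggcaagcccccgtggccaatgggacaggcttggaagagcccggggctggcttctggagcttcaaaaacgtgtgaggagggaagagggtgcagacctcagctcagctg

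The CArG box was searched on both strands as CCNNNNNNGG with at most 1 G or C among the 6 core bases, and 8.08% of 33469 rat promoter windows of the same length held one. With a core of A and T alone, which is a part of the first search, the share was 1.5%. The MCAT element, the site of TEAD factors, was searched as CATTCC on either strand and was in 12.1% of the windows. The Acta2 window held CCCTATATGG at 134 bases and CCTTGTTTGG at 84 bases upstream of the start, and GGAATG, the reverse complement of the MCAT letters, at 196 bases. No window of the 6 genes held a CArG box with a core of A and T alone. These matches are letters in a short window, and known elements farther from a start or within an intron were not searched.

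Actg2 encodes gamma-enteric actin, the main actin of visceral smooth muscle (chr4:115215160-115239746, minus strand). It was read at 3.51, 3.82 and 3.71 CPM in SASCs, at 12.2, 10.7 and 12.2 CPM in PASCs, and at 116.6, 115.6 and 120.0 CPM in EASCs. The EASCs samples stood alone at a high level, and PASCs were much nearer to SASCs than to EASCs. Fitted, this was a log2 fold change of 5.00 (SE 0.0858, edgeR adjusted p = 2.09e-26) in EASCs against SASCs and 1.67 (SE 0.101, edgeR adjusted p = 2.89e-14) in PASCs against SASCs. Between EASCs and PASCs it was 3.33 (SE 0.0732, edgeR adjusted p = 1.11e-22), a 10.1-fold difference, the largest of the 10 genes in that comparison.

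The coding parts of the 4 muscle actins are nearly identical, and how the counting treated reads that match several genes is not given in the sources used here, so values of Acta2, Actg2, Acta1 (skeletal muscle actin) and Actc1 (cardiac actin) could have been split between them. For every 100 counts of Acta2 there were from 6.55 to 6.65 counts of Actg2 in SASCs, from 1.16 to 1.37 in PASCs and from 5.24 to 5.53 in EASCs. The ratio was lowest in PASCs. What part of the Actg2 counts came from reads shared with Acta2 was not tested, and this limit holds for the call of Actg2 in PASCs too. Acta1 was read at from 0.261 to 0.739 counts per 100 of Acta2 in SASCs, from 0.357 to 0.445 in PASCs and from 0.689 to 0.744 in EASCs. Actc1 had 0 counts in all samples but SASCs replicate 2, which had 7.

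With the counts of the 4 muscle actins summed, the log2 fold change was 5.29 (SE 0.0653, edgeR adjusted p = 4.63e-29) in EASCs against SASCs. The sum gave 3.95 (SE 0.0617, edgeR adjusted p = 5.18e-27) in PASCs against SASCs and 1.33 (SE 0.0545, edgeR adjusted p = 5.28e-17) in EASCs against PASCs. Acta2 alone had 5.30, 4.03 and 1.27, and it made up 92.7 to 98.5% of the summed counts. The sum had the same order of depots as Acta2, which makes up nearly all of it, and the effect of multiply mapped reads on either was not tested.

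The nonmuscle actins Actb and Actg1, which build the cytoskeleton of most cells, were called higher in both visceral depots than in SASCs, by less than Acta2. Actb was 4.29-fold higher in EASCs (edgeR adjusted p = 2.20e-21) and 3.46-fold higher in PASCs (edgeR adjusted p = 7.38e-20) than in SASCs. For Actg1 the log2 fold change was 1.97 in EASCs and 1.95 in PASCs, and a locus annotated as actin gamma 1 propeptide-like could share its reads. Per length (FPKM, the CPM divided by gene length), Acta2 made up 2.01% ± 0.0463 (SD, n = 3) of the 6 actins in SASCs, 8.69% ± 0.306 in PASCs and 15.9% ± 0.213 in EASCs. This share does not depend on the scaling between samples. The share of Actg2 was 0.138% ± 0.00400 in SASCs, 0.116% ± 0.00784 in PASCs and 0.881% ± 0.0196 in EASCs, so that within the actins Actg2 was lower in PASCs than in SASCs although its CPM was higher.

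Myh11 encodes the smooth muscle myosin heavy chain, the motor of the thick filament (chr10:764421-859184, plus strand). Its level was 18.7, 18.9 and 22.5 CPM in SASCs, 54.2, 52.2 and 57.0 CPM in PASCs, and 208, 222 and 207 CPM in EASCs. As for Actg2, the larger step was from PASCs to EASCs. Differences on the log2 scale were 3.41 (SE 0.0700, edgeR adjusted p = 8.57e-25) in EASCs against SASCs, 1.45 (SE 0.0707, edgeR adjusted p = 2.72e-16) in PASCs against SASCs and 1.96 (SE 0.0635, edgeR adjusted p = 4.10e-19) in EASCs against PASCs. The locus LOC103693254 overlaps Myh11 on the same strand and had 35 to 155 counts per sample.

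Among the actin-binding proteins, Cnn1 encodes calponin, which binds the thin filament and restrains the myosin ATPase (chr8:23113083-23121748, plus strand). It was at 2.68, 2.59 and 2.44 CPM in SASCs, 115.6, 114.8 and 103 CPM in PASCs, and 320.2, 326 and 339 CPM in EASCs. It was low in all SASCs samples and by FPKM ranked 10115 of the tested genes there, against 706 in PASCs and 225 in EASCs. In the fit, the log2 fold change was 6.99 (SE 0.0841, edgeR adjusted p = 4.33e-29) in EASCs against SASCs, a 127-fold difference and the largest of the 10 genes. PASCs exceeded SASCs by 43.0-fold (log2 5.43, SE 0.0852, edgeR adjusted p = 5.56e-27), and EASCs exceeded PASCs by 2.95-fold (log2 1.56, SE 0.0557, edgeR adjusted p = 3.25e-18).

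Tagln encodes transgelin (SM22), an actin cross-linking protein that appears early in smooth muscle differentiation (chr8:50222895-50228369, minus strand). The level of Tagln was 72.3, 79.5 and 70.7 CPM in SASCs, 2007, 1922 and 1748 CPM in PASCs, and 3748, 3597 and 3405 CPM in EASCs. Tagln had a log2 fold change of 5.59 (SE 0.0778, edgeR adjusted p = 2.40e-28) in EASCs against SASCs and 4.67 (SE 0.0747, edgeR adjusted p = 7.38e-27) in PASCs against SASCs. EASCs lay above PASCs in every sample by 1.89-fold (log2 0.92, SE 0.0637, edgeR adjusted p = 3.88e-12), under the fold of 2 that a call required. By FPKM, Tagln ranked 10 among the 14770 tested genes in EASCs, 20 in PASCs and 670 in SASCs, and it was the most abundant of the 10 genes in every depot.

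Smtn encodes smoothelin, which is bound to actin filaments in contractile smooth muscle cells (chr14:83755141-83776872, minus strand). Its level was 33.8, 35.5 and 32.3 CPM in SASCs, 93.0, 87.6 and 92.6 CPM in PASCs, and 102, 107.5 and 107.4 CPM in EASCs. Smtn had the smallest difference of the 10 genes between the visceral depots. Against SASCs its log2 fold change was 1.64 (SE 0.0602, edgeR adjusted p = 3.89e-19) in EASCs and 1.42 (SE 0.0603, edgeR adjusted p = 1.04e-17) in PASCs. Between EASCs and PASCs it was 0.22 (SE 0.0564, edgeR adjusted p = 0.00408), which was not called, and with total counts in place of TMM it was 0.14 (edgeR adjusted p = 0.663).

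Lmod1 encodes leiomodin 1, which nucleates actin filaments in smooth muscle (chr13:52147140-52189689, plus strand). It was read at 10.3, 13.5 and 10.6 CPM in SASCs, 99.5, 96.7 and 85.6 CPM in PASCs, and 162, 164 and 168 CPM in EASCs. For Lmod1 the log2 fold change was 3.85 (SE 0.0823, edgeR adjusted p = 2.05e-24) in EASCs and 3.04 (SE 0.0824, edgeR adjusted p = 4.63e-22) in PASCs against SASCs. EASCs exceeded PASCs by 1.75-fold (log2 0.81, SE 0.0675, edgeR adjusted p = 1.86e-10), again under the fold required. Its relatives were rare: Lmod1 made up 94.4 to 97.8% of the leiomodin FPKM as group means, and Lmod2 had no count in any sample.

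Within their families, the smooth muscle forms of calponin and transgelin made up the least in SASCs and the most in EASCs. Cnn1 made up 0.811% ± 0.0509 (SD, n = 3) of the FPKM of 3 calponins in SASCs, 15.7% ± 0.453 in PASCs and 33.5% ± 1.03 in EASCs. Tagln made up 22.6% ± 0.824 of 3 transgelins in SASCs, 75.4% ± 0.244 in PASCs and 82.4% ± 1.08 in EASCs. The main transgelin was thus Tagln2, the form of many nonmuscle cells, in SASCs and Tagln in both visceral depots. Synpo2 had another order. It made up 9.81% ± 1.16 of the FPKM of 3 synaptopodins in SASCs, 2.11% ± 0.142 in PASCs and 5.75% ± 0.540 in EASCs.

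**Figure D2:**
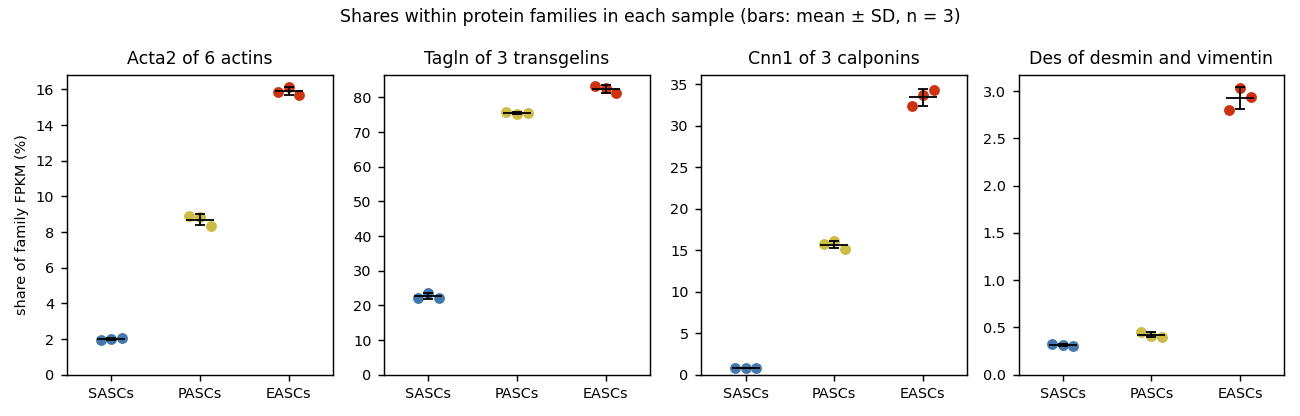
Share of Acta2 among 6 actins, Tagln among 3 transgelins, Cnn1 among 3 calponins and Des in the sum of desmin and vimentin, in percent of the FPKM of each family, with axes that start at 0. Points are samples and bars the mean ± SD (n = 3), and the depots do not overlap in any panel. Synpo2 among 3 synaptopodins is not shown, and its share was highest in SASCs.

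Des encodes desmin, the intermediate filament protein of muscle, which ties the contractile filaments to dense bodies (chr9:82556574-82564288, plus strand). Its level was 11.3, 11.5 and 10.2 CPM in SASCs, 29.0, 27.5 and 27.3 CPM in PASCs, and 183, 198 and 197.5 CPM in EASCs. The EASCs samples stood apart, as for Actg2. Des had a log2 fold change of 4.13 (SE 0.0699, edgeR adjusted p = 1.58e-26) in EASCs against SASCs, 1.34 (SE 0.0740, edgeR adjusted p = 4.00e-15) in PASCs against SASCs and 2.79 (SE 0.0628, edgeR adjusted p = 1.62e-22) in EASCs against PASCs. Against vimentin, the intermediate filament of mesenchymal cells, Des made up 0.314% ± 0.00882 (SD, n = 3) of their joint FPKM in SASCs, 0.423% ± 0.0258 in PASCs and 2.92% ± 0.115 in EASCs.

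Synpo2 encodes synaptopodin 2 (myopodin), an actin-bundling protein of Z-discs and dense bodies (chr2:227255261-227411924, minus strand). It was at 4.0, 4.33 and 5.76 CPM in SASCs, 2.64, 2.99 and 3.07 CPM in PASCs, and 9.34, 10.6 and 9.53 CPM in EASCs. All PASCs samples lay below all SASCs samples, unlike the other structural genes. The log2 fold change was -0.69 (SE 0.173, edgeR adjusted p = 0.00101) in PASCs against SASCs, short of a call at a fold of 2. It was 1.76 (SE 0.162, edgeR adjusted p = 1.26e-09) in EASCs against PASCs and 1.08 (SE 0.153, edgeR adjusted p = 5.85e-07) in EASCs against SASCs, a 2.11-fold difference that lost its call without SASCs replicate 1, at a log2 fold change of 0.97. With total counts in place of TMM, Synpo2 was called lower in PASCs (log2 -1.02) and was no longer called in EASCs against SASCs (log2 0.68).

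Myocd encodes myocardin, the coactivator of SRF that is largely restricted to cardiac and smooth muscle (chr10:51683534-51781427, minus strand). It was the least abundant of the 10 genes in every depot, with 35, 28 and 25 counts in SASCs, 37, 33 and 14 counts in PASCs, and 107, 125 and 113 counts in EASCs. These counts gave 1.22, 1.19 and 1.22 CPM in SASCs, 1.42, 1.23 and 0.741 CPM in PASCs, and 4.48, 5.07 and 5.05 CPM in EASCs. EASCs stood above the 6 other samples, while SASCs and PASCs overlapped.

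The log2 fold change of Myocd was 2.00 (SE 0.242, edgeR adjusted p = 3.74e-08) in EASCs against SASCs and 2.07 (SE 0.244, edgeR adjusted p = 1.15e-07) in EASCs against PASCs. In PASCs against SASCs it was -0.06 (SE 0.280, 95% interval -0.64 to 0.51, edgeR adjusted p = 0.849), and without PASCs replicate 3 it was 0.13. Changes of up to 0.51 upward or 0.64 downward on the log2 scale could therefore not be resolved with these samples. Depth and the spread between samples were not separated. In the same comparison Acta2, Tagln and Cnn1 had log2 fold changes of 4.03, 4.67 and 5.43.

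**Figure D3:**
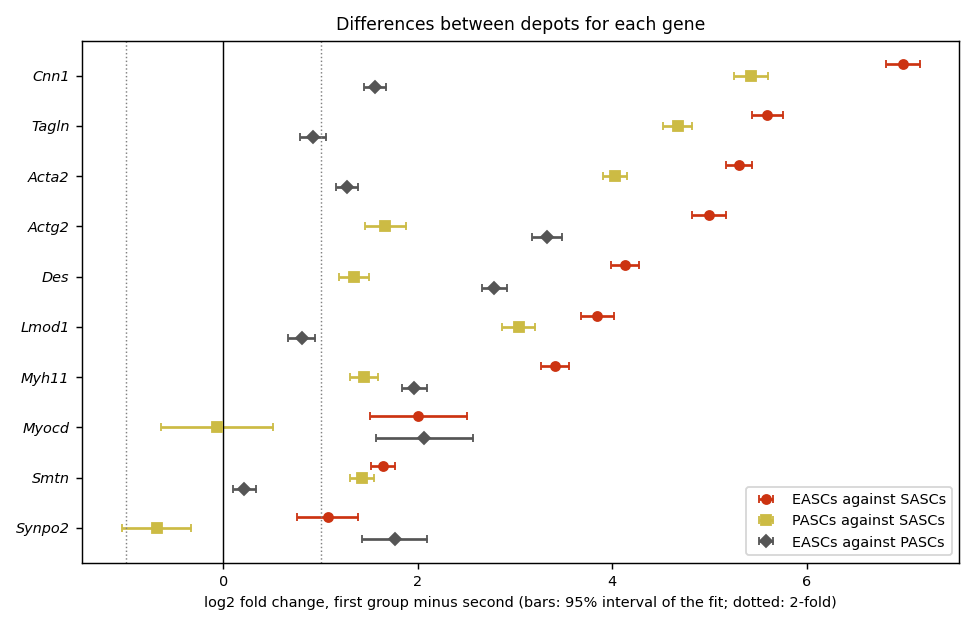
Log2 fold change of each of the 10 genes in the 3 comparisons, first group minus second, with the 95% interval of the edgeR fit as bars. Dotted lines mark a fold of 2, the solid line marks 0, and genes are sorted by EASCs against SASCs, from Cnn1 (6.99) at the top to Synpo2 (1.08) at the bottom.

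The genes differed in where along the depots their change lay. PASCs already showed 76.0% of the log2 difference between SASCs and EASCs for Acta2, 83.5% for Tagln, 77.7% for Cnn1, 79.0% for Lmod1 and 86.9% for Smtn. The same share was 42.4% for Myh11, 33.4% for Actg2 and 32.5% for Des. For Myocd it was -3.21% and for Synpo2 -63.7%, since their PASCs means lay below those of SASCs. The sign of the Myocd share was not settled. Its log2 difference between PASCs and SASCs lay between -0.25 and 0.13 with single libraries left out. These shares use one SASCs mean in both differences and are given as a description of the depot means.

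Over the 9 samples, the pairs of these genes with the most alike profiles were Acta2 with Tagln (root mean square difference 0.268 of log2 CPM centred on each gene's mean), Actg2 with Des (0.356), Des with Myh11 (0.387) and Myocd with Synpo2 (0.460). By the same measure over 14760 other tested genes, the nearest to Acta2 was Ptgis, the prostacyclin synthase (0.257), and the nearest to Tagln was Rasl12 (0.267). For Cnn1 it was Olr1, a receptor for oxidized lipoprotein (0.209), for Myh11 Tfpi2 (0.207) and for Lmod1 Dpysl3 (0.169). Gata2 was nearest to Actg2 (0.255) and Cdh2, the neuronal cadherin, to Synpo2 (0.147). Smtn had Fstl1 among its 3 nearest genes (0.0645), and Myocd had RGD1306556 as its nearest (0.143).

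Other genes of the contractile apparatus, a list of 38 that all passed the filter, were for the most part called higher in the visceral depots than in SASCs. In EASCs against SASCs 30 were called higher and 0 lower (13.6% and 14.2% of all tested genes), with a median log2 fold change of 2.02. PASCs had 22 called higher and 0 lower against SASCs (12.0% and 14.9% of all tested genes), with a median of 1.26. Between EASCs and PASCs 9 were called higher and 0 lower (5.19% and 2.20% of all tested genes), with a median of 0.48. At any fold, 33 passed the adjusted p upward and 3 downward in EASCs against SASCs (35.5% and 34.3% of all tested genes). At any fold, the numbers were 27 and 5 in PASCs against SASCs (34.6% each way over all genes) and 29 and 2 in EASCs against PASCs (16.1% and 14.5%). Those that passed downward included Ldb3, a Z-disc protein (log2 -0.91), and Svil, supervillin (log2 -0.74), in EASCs against SASCs, and Itga8, an integrin (log2 -0.92), in PASCs against SASCs, named here after their values were seen.

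Myl9, the regulatory light chain of smooth muscle myosin, rose with Acta2: its level was 26.2 ± 0.476 CPM (SD, n = 3) in SASCs, 248 ± 17.6 in PASCs and 584 ± 15.1 in EASCs, and its log2 fold change was 4.48 in EASCs and 3.24 in PASCs against SASCs. Tpm2, a tropomyosin of the thin filament, was called at 4.34 and 3.66 in the same comparisons. Csrp2, a LIM protein of smooth muscle, was the gene of the list with the largest increase in PASCs, at 3.95 against 3.66 in EASCs. Pdlim3 and Kcnmb1 resembled Des and Actg2 in that most of their change lay between PASCs and EASCs. Pdlim3, a Z-disc protein, had log2 fold changes of 3.79 in EASCs against SASCs and 3.46 in EASCs against PASCs, but 0.33 in PASCs against SASCs (edgeR adjusted p = 0.372). Kcnmb1, the beta subunit of the calcium-activated potassium channel of smooth muscle, had 4.18, 2.78 and 1.40, and the last was lost without PASCs replicate 1 (log2 0.89, edgeR adjusted p = 0.122). The first lay between 3.90 and 4.84 with single libraries left out.

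Of 25 listed regulators of these genes, 22 passed the filter. In EASCs against SASCs 2 were called higher and 1 lower, beside 13.6% and 14.2% of all tested genes. In PASCs against SASCs 2 were called higher (12.0% of all tested genes), and in EASCs against PASCs 1 was (5.19%). Their median log2 fold change was 0.06 in EASCs and -0.10 in PASCs against SASCs, and 0.07 in EASCs against PASCs. Srf was called higher in both visceral depots, at 1.07 (SE 0.0638, edgeR adjusted p = 2.00e-14) in EASCs and 1.09 (SE 0.0638, edgeR adjusted p = 1.62e-14) in PASCs, and both calls were lost with total counts in place of TMM (log2 0.67 and 0.76). Mkl1, the actin-sensing coactivator of SRF, was higher by 0.95 (edgeR adjusted p = 5.85e-13) in EASCs and 0.80 (edgeR adjusted p = 2.47e-11) in PASCs, both under the fold required. Per length, Myocd made up 3.25% ± 0.394 (SD, n = 3) of the FPKM of Myocd, Mkl1 and Mkl2 in SASCs, 2.12% ± 0.543 in PASCs and 7.56% ± 0.415 in EASCs.

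Klf4, a repressor of smooth muscle genes, had a log2 fold change of 0.10 (edgeR adjusted p = 0.126) in EASCs against SASCs and 0.45 (edgeR adjusted p = 6.13e-08) in PASCs against SASCs, the latter not called and 0.13 (edgeR adjusted p = 0.507) with total counts in place of TMM. Over the alternatives its value in EASCs against SASCs went as low as -0.30, so that its direction was not settled. Smad3, a mediator of transforming growth factor beta, was called lower in EASCs (log2 -1.04, edgeR adjusted p = 8.41e-15), and in PASCs its log2 fold change of -0.97 was just under the fold required. Tcf21, a factor of visceral mesenchyme and epicardium, had 0 counts in SASCs, and against a limit of 3 counts per library it was at least 10.1-fold higher in PASCs and at least 50.0-fold higher in EASCs. It also was the only regulator called between EASCs and PASCs, at a log2 fold change of 2.31 (SE 0.256, edgeR adjusted p = 7.53e-08).

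**Figure D4:**
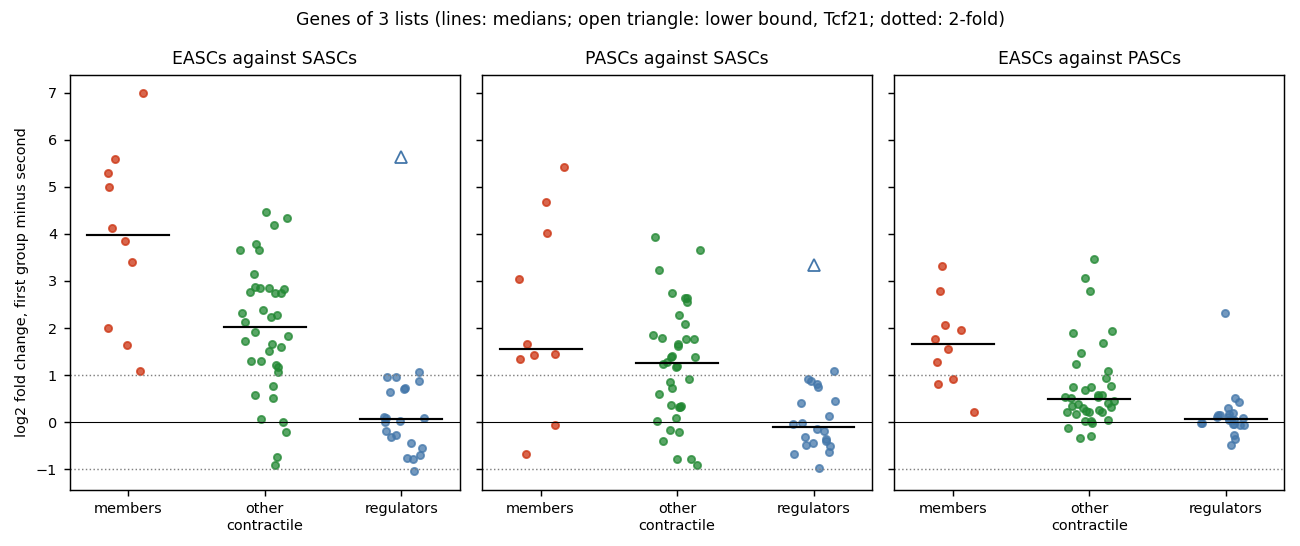
Log2 fold change of each tested gene of 3 lists (the 10 smooth muscle differentiation genes, 38 other contractile genes and 22 regulators) in each comparison, first group minus second. Horizontal lines are medians, dotted lines a fold of 2, and the open triangle is Tcf21 at its lower bound against a group with 0 counts. The medians fall from the first list to the last in every comparison, and those of the regulators lie between -0.10 and 0.07.

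Markers of other cell types moved with the depots too, and their part in these results was not tested. Summed levels of 9 mesothelial markers were from 20.01 to 21.6 CPM in SASCs, from 98.9 to 106 in PASCs and from 132 to 143 in EASCs, the same depot order as for Acta2. Of 8 tested, 7 were called higher in EASCs (13.6% of all tested genes) and 8 in PASCs (12.0%) against SASCs. The call of Bnc1 in PASCs, at 0 to 16 counts in the samples of these groups, was lost with a replicate block (edgeR adjusted p = 0.0582), with total counts (0.109), with no filter (0.0583) and without any of 5 single libraries (up to 0.183). Its call in EASCs was lost without EASCs replicate 3 (log2 1.63, edgeR adjusted p = 0.0678), and its log2 fold change there lay between 1.57 and 2.79 with single libraries left out. The called markers included Wt1, at a log2 fold change of 4.81 in EASCs and 4.23 in PASCs, with means of 53.7 and 36.0 CPM. Wt1 was also among the 3 genes nearest to Tagln, a nearness taken over the same samples. The keratin Krt18 had means of 2.24 CPM in EASCs and 0.608 in PASCs, with 0 counts in SASCs. Krt19 had means of 0.151 CPM in SASCs and 0.0270 in EASCs, with 0 counts in PASCs. The sum of 8 leukocyte markers was from 27.6 to 33.1 CPM in SASCs, from 93.5 to 95.4 in PASCs and from 143 to 154 in EASCs, with the T cell marker Cd3e and the B cell marker Cd79b at 0 counts in all 9 samples. Of 6 tested, 6 were called higher in EASCs (13.6% of all tested genes) and 3 in PASCs (12.0%) against SASCs. In PASCs, with single libraries left out, Ptprc lay between 0.49 and 0.86 on the log2 scale and Cd68 between 0.22 and 0.42.

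Pericytes, the mural cells of small vessels, share several of these genes, and single markers differed in direction. The sum of 9, of which Pdgfrb was the largest part, was from 585 to 603 CPM in SASCs, from 447 to 496 in PASCs and from 546 to 574 in EASCs. In EASCs 3 of 8 tested were called higher and 4 lower than in SASCs (13.6% and 14.2% of all tested genes), and in PASCs 1 was called higher and 4 lower (12.0% and 14.9%). In EASCs the list had Rgs5 at a log2 fold change of -2.85 and Cspg4 at 2.59, and Abcc9, Kcnj8 and Notch3 at -2.05, -1.70 and -1.09. The value of Rgs5 lay between -3.49 and -2.50 with single libraries left out. Ndufa4l2 had the depot order of Acta2, with means of 37.1, 60.6 and 74.8 CPM from SASCs over PASCs to EASCs. The sum of 7 endothelial markers was highest in SASCs, at 54.9 to 56.2 CPM, and was from 13.9 to 17.0 in PASCs and from 37.9 to 40.8 in EASCs. Of these 7, 1 was called higher and 1 lower in EASCs than in SASCs (13.6% and 14.2% of all tested genes). In PASCs 1 was called higher and 6 lower (12.0% and 14.9%). With single libraries left out, Cdh5 in EASCs against SASCs lay between 0.01 and 0.13 on the log2 scale, and Vwf between -0.10 and 0.05.

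Striated muscle markers other than Des and Acta1 were at low levels. The myogenic factors Myog, Myf5 and Pax7 had 0 counts in all 9 samples. Myod1, a further myogenic factor, had 8, 4 and 8 counts in SASCs, 15, 3 and 10 counts in PASCs and 0 in each EASCs sample, and against a limit of 3 counts it was at least 2.08-fold lower in EASCs than in SASCs. The means of Acta1 were 0.248, 3.52 and 15.8 CPM from SASCs over PASCs to EASCs (log2 5.96 in EASCs against SASCs, edgeR adjusted p = 1.25e-18), with reads that it may share with Acta2. The 10 skeletal muscle markers other than Des had a sum from 4.25 to 6.58 CPM in SASCs, from 1.96 to 2.60 in PASCs and from 2.15 to 2.93 in EASCs. Most of that sum was Tnnt3, a troponin of fast muscle, whose SASCs mean was 4.71 ± 1.08 CPM (SD, n = 3) and whose EASCs mean was 2.22 ± 0.413 CPM, while the means of Mylpf were 0.0768 and 0.269 CPM. Their part in the level of Des, which skeletal muscle also expresses, was not tested. The cardiac factor Nkx2-5 had 0 counts in every sample, and the sum of 7 cardiac markers was 3.78 CPM in SASCs replicate 2 and at most 0.851 CPM in the 8 other samples. The cardiac troponin Tnnt2 was called higher in EASCs than in SASCs, at 13 to 21 counts against 1 to 13 (log2 1.59, edgeR adjusted p = 0.0245), and the log2 fold change was 3.07 without SASCs replicate 2, which held 13 of the SASCs counts. It lost that call without SASCs replicate 1 or 3, without EASCs replicate 1 or 2 and with total counts.

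**Figure D5:**
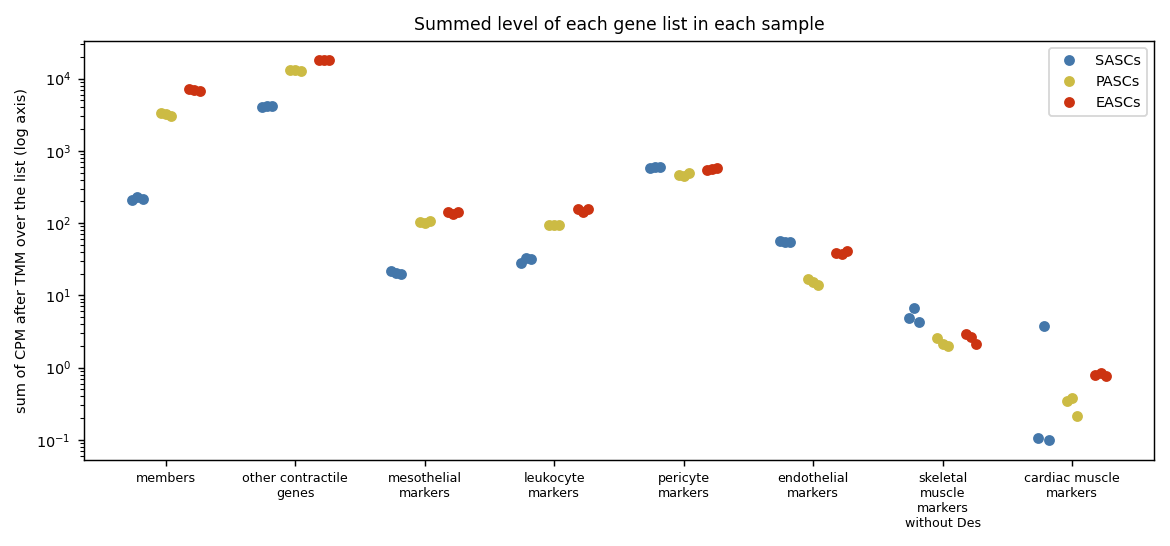
Summed level of each gene list in each of the 9 samples, in CPM after TMM on a log axis, with 1 point per sample coloured by depot. The 10 smooth muscle differentiation genes, the other contractile genes, the mesothelial markers and the leukocyte markers share the order EASCs > PASCs > SASCs, which the pericyte, endothelial and skeletal muscle markers (the last without Des) do not, and 1 SASCs library stands apart in the cardiac markers.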

How the data were processed

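The authors trimmed the paired-end reads, aligned them with TopHat and deposited whole-number read counts per gene, unnormalized, with a gene length. The study's methods name build rn6 and the submitters' processing notes rn5 (TopHat2); the table's scaffold names are those of rn6. The counting tool, use of strand and handling of multiply mapped reads are not given in the sources used here.

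From these counts, edgeR 4.0.16 in R 4.3.3 gave TMM factors (0.740 to 1.23), CPM, FPKM from the deposited lengths, and quasi-likelihood tests of 14770 genes passing filterByExpr. All 9 samples and 3 groups were in 1 fit without a block, with Benjamini-Hochberg adjustment within each comparison. A call needed an adjusted p under 0.05 and more than a 2-fold change. The study's own test, DEGseq, was not used. The fit was checked on simulated data. Replicates of a group differed by more than counting noise (chi-square per degree of freedom 6.23 to 288). Same-numbered samples did not deviate together (correlations -0.0348 to 0.0380).

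The members and lists were chosen with earlier results of these data known. Named genes were the members, the other actins, at most 5 called genes of each other list with the largest change, defining markers near 0, and for each member the 3 nearest profiles (log2 CPM, prior count 2). Of the marker lists, not every gene so selected is given, and an item is left out. Mkl1, Mkl2, Klf4, Ndufa4l2, Mylpf, the family shares and the shares in PASCs were added after values were seen. Alternatives were the size factors and test of DESeq2 1.42.0, no TMM, TMM without rRNA genes, no filter, only the groups compared, a replicate block, limma 3.58.1 on log2 CPM, any fold, leaving out each sample and, added after seeing the data, quantile normalization. Floors cover counting error only, and the intervals of the fit include the spread between samples. Metabolite data were not analysed here.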

Additional observations from a re-analysis of the deposited data

How the results depend on the processing

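Over all alternatives, between 9 and 10 of the 10 smooth muscle differentiation genes were called in EASCs against SASCs, 8 to 9 in PASCs against SASCs and 7 to 10 in EASCs against PASCs. Leaving out each sample in turn gave 9 to 10, 8 to 8 and 7 to 7, and Synpo2 was the gene lost, without SASCs replicate 1. At any fold change, 31 other contractile genes passed the adjusted p in EASCs against PASCs (9 at a fold of 2), and 17, 17 and 8 regulators passed in the 3 comparisons (3, 2 and 1 at a fold of 2), where 35.5% of all tested genes passed upward and 34.3% downward in EASCs against SASCs, 34.6% each way in PASCs against SASCs, and 16.1% and 14.5% in EASCs against PASCs. With total counts in place of TMM, 5 regulators were called in EASCs against SASCs, 1 higher and 4 lower, and the median log2 fold change of all genes moved to -0.39 in EASCs and -0.33 in PASCs against SASCs and -0.08 in EASCs against PASCs. All tested genes then split into 1349 called higher and 3425 lower in EASCs against SASCs (2002 and 2103 with TMM) and 1262 and 3165 in PASCs (1779 and 2200 with TMM). Among the 10 genes, only Smtn in EASCs against PASCs lost its adjusted p without TMM, while Synpo2 lost its call in EASCs against SASCs (log2 0.68) and was called lower in PASCs against SASCs (log2 -1.02). No direction of a called value reversed. With the replicate number as a block, Acta2 had log2 fold changes of 5.30, 4.03 and 1.27, and 10, 8 and 7 of the genes were called; the replicate numbers do not pair the samples, and the block changed no call of these genes. Myocd had low counts, 14 to 125 per sample, and the part of depth in its spread was not tested.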
